A study of Mus musculus with 20 samples.

Results

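The genes described here are 7 markers of nerve tissue in the pancreas: Npy, Th and Dbh of sympathetic neurons, Stmn2 and Tubb3 of neurons in general, and Sox10 and Fabp7 of Schwann cells and their precursors. They were taken by gene symbol from the array's probe table, 7 of 30063 named genes, and each was measured by 1 probe set. RNA of whole C57BL/6J mouse pancreas had been hybridised to 20 Affymetrix arrays in 4 groups: Iir +/+ (wild type) with 4 arrays and Iir -/- (knockout) with 5 at embryonic day 18.5 (E18.5), and wild type with 5 and knockout with 6 on the day of birth (P0). Iir is inceptor, the product of Elapor1, which restrains insulin receptor signalling; food was withheld from the mother for 2 h at E18.5 and from the pups for 5 h at P0. Values are log2 signals, so 1 unit is a doubling. Because a probe set has its own sensitivity, levels are compared between arrays and never between genes.

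Sympathetic fibres enter the pancreas along its arteries and reach islets and ducts, and their cell bodies lie outside the organ. Tyrosine hydroxylase (Th) makes L-DOPA from tyrosine, the rate-limiting step of noradrenaline synthesis, and dopamine beta-hydroxylase (Dbh) makes noradrenaline from dopamine inside the vesicles. Neuropeptide Y (Npy) is stored and released with noradrenaline by the same neurons, and it is also made by chromaffin cells of the adrenal medulla and by immature islet cells. Stathmin-2 (Stmn2) and the neuronal tubulin Tubb3 shape the microtubules of growing axons. Sox10 is the transcription factor that neural crest cells keep as they become glia, and Fabp7 is a fatty acid binding protein of glial precursors.

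The targeted gene separated the genotypes at both ages, with Elapor1 lower by 5.55 ± 0.19 (SE) at E18.5 and by 5.49 ± 0.18 at P0 on the log2 scale. The signal of the pancreas itself was strong on every array, with a mean of the 7 islet hormone and peptide genes between 15.39 and 16.17, while array medians lay between 4.81 and 4.94. The number of arrays limits the precision of what follows. Skeletal muscle markers stood apart on P0 knockout array 4 (mean 8.003) and E18.5 knockout array 1 (7.65), against 5.10 to 6.06 on the other arrays. The second of these was also the array with the highest signal of Npy, Th, Dbh, Stmn2, Sox10 and Fabp7, and results that rest on it are given with and without it.

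Npy, Th and Dbh moved together from array to array, so the 250 bases before their transcription starts are shown, from RefSeq's annotation of mouse assembly GRCm38.p6. They were searched on both strands for the cyclic AMP response element TGACGTCA, to which CREB binds, and for ATTA, the core letters of homeodomain sites such as those of the PHOX2 factors; capitals mark the matches.
Npy, chr6:49822460-49822709, plus strand: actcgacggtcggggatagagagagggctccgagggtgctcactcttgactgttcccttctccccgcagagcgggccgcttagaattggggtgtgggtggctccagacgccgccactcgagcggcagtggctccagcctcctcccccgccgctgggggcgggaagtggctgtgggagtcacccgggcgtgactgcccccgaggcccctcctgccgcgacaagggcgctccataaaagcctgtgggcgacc
Th, chr7:142899996-142900245, minus strand: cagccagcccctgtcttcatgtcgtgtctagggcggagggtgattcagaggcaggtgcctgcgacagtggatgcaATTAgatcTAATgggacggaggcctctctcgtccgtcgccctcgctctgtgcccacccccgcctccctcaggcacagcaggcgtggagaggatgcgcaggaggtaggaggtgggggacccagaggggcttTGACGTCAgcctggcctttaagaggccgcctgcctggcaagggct
Dbh, chr2:27165257-27165506, plus strand: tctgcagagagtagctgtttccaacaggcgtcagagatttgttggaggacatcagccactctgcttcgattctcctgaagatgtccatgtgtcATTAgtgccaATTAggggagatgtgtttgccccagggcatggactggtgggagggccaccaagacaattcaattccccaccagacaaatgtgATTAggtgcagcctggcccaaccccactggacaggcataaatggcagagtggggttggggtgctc
The Th window held TGACGTCA from 45 to 38 bases before the start, and ATTA from 175 to 172 and, on the opposite strand, from 167 to 164. The Dbh window held ATTA at 157 to 154, at 147 to 144 and at 65 to 62 bases before the start. The Npy window held neither set of letters. TGACGTCA occurred in 1.55% and ATTA in 54.9% of 32851 promoter windows of this length, so the second is common; matching letters are a description and not a binding site.

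Npy had the widest spread of the 7 genes. In E18.5 wild type the 4 arrays read 12.62, 12.22, 9.79 and 8.67, and in E18.5 knockouts the 5 arrays read 16.02, 10.65, 10.51, 9.78 and 10.05. At P0 the 5 wild-type arrays read 10.02, 9.33, 7.15, 6.64 and 6.62, while the 6 knockout arrays ran from 8.67 through a median of 11.01 to 11.73. A single E18.5 knockout array therefore stood far above all others, 3 of 5 P0 wild-type arrays lay below every array of the other groups, and 5 of 6 P0 knockouts lay above every P0 wild-type array. From the lowest to the highest array Npy spanned 9.40 log2 units, 674-fold, more than 99.9% of the 17993 tested genes. By group mean the order was E18.5 knockout (11.40 ± 2.60, SD, n = 5), E18.5 wild type (10.82 ± 1.90, n = 4), P0 knockout (10.74 ± 1.07, n = 6) and P0 wild type (7.95 ± 1.61, n = 5). The first 3 means lay closer together than the spread within each group, and all neighbouring groups overlapped.

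Th, the entry enzyme, split the arrays in a similar way. It read 7.26, 6.95, 5.61 and 5.66 in E18.5 wild type and 9.11, 5.11, 5.42, 5.30 and 5.13 in E18.5 knockouts. At P0 it read 6.36, 5.17, 5.42, 5.20 and 5.16 in wild type, and 5.08 to 6.83 with a median of 6.21 in knockouts. Thus 1 of 5 E18.5 knockouts, 2 of 4 E18.5 wild types, 1 of 5 P0 wild types and 4 of 6 P0 knockouts were above 6, and the groups overlapped.

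Dbh, the noradrenaline-forming enzyme, was high on the same arrays. It read 7.88, 7.03, 5.10 and 5.09 in E18.5 wild type and 9.05, 4.68, 4.81, 4.67 and 4.75 in E18.5 knockouts. At P0 it read 6.63, 4.78, 4.67, 4.80 and 4.72 in wild type and 4.86 to 7.996, with a median of 6.36, in knockouts. Dbh was above the array median on 11 of 20 arrays, the fewest of the 7 genes. On the 9 arrays where Dbh was under 5, between 4.67 and 4.86, Npy still spanned 4.03 log2 units, from 6.62 to 10.65. Within these 9 the 4 E18.5 knockouts read 9.78 to 10.65 for Npy, the 4 P0 wild types 6.62 to 9.33 and the 1 P0 knockout 8.67. Dbh was not above the array median on any of these 9, so they cannot be ordered by Dbh.

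**Figure D1:**
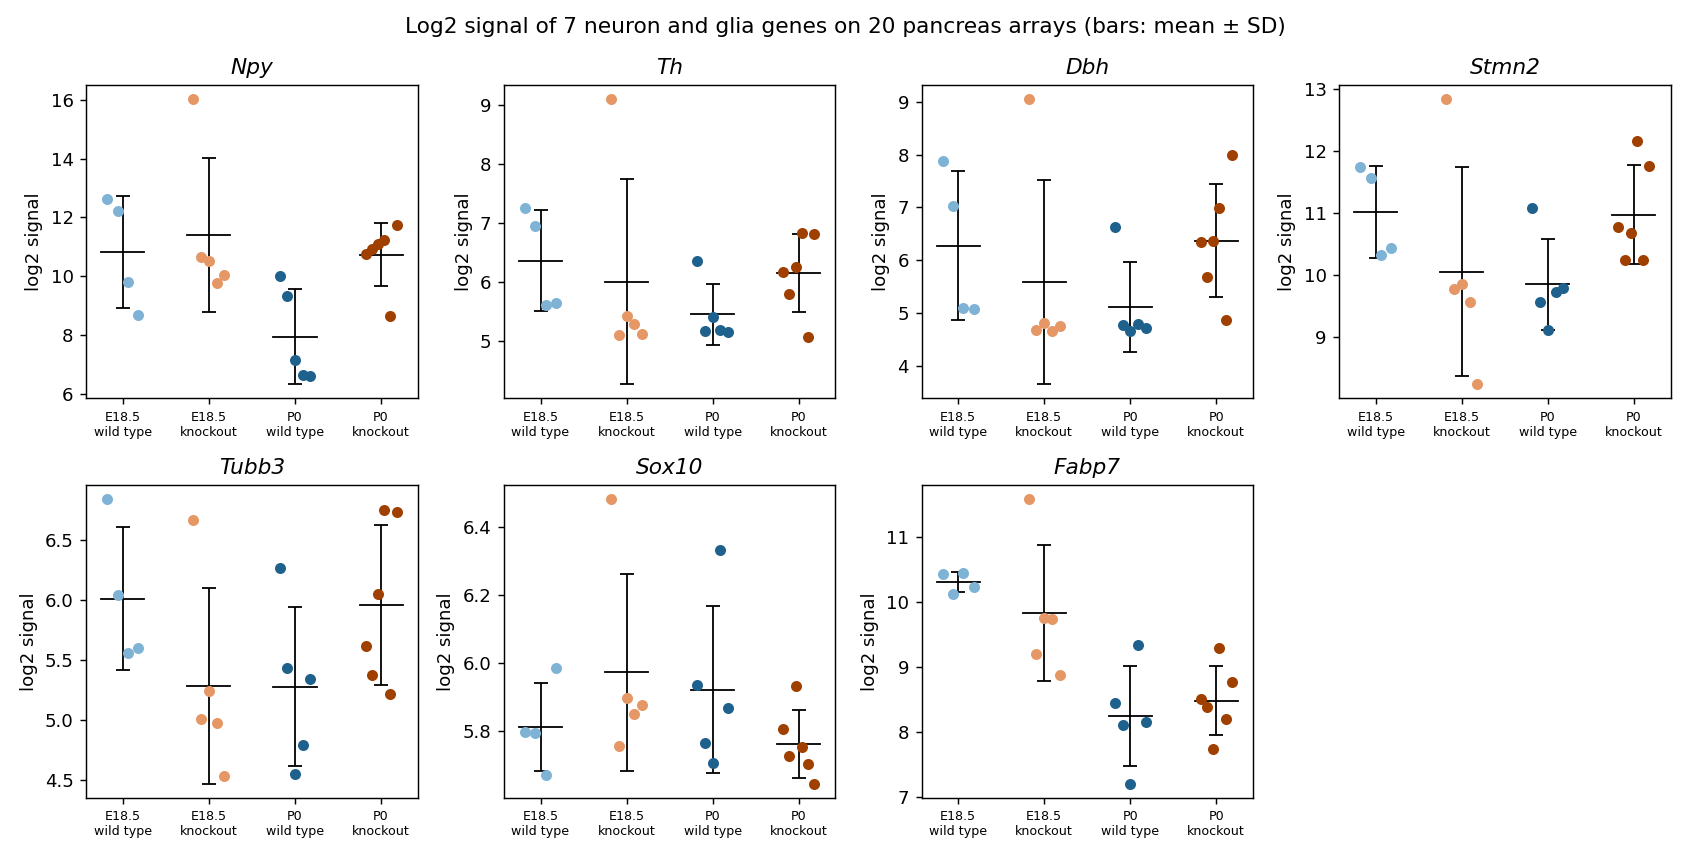
Each panel plots the log2 signal of 1 gene against the group, with 1 point per array and a line and bar for the group mean ± SD (n = 4, 5, 5 and 6 from left to right). The E18.5 knockout array with Npy at 16.02 is also the highest for Th (9.11) and Dbh (9.05), and Fabp7 is lower at P0 than at E18.5 in most arrays.

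Of the general neuronal members, Stmn2 read 11.74, 11.57, 10.32 and 10.43 in E18.5 wild type and 12.84, 9.78, 9.85, 9.56 and 8.25 in E18.5 knockouts. At P0 it read 11.08, 9.56, 9.11, 9.73 and 9.80 in wild type and 10.24 to 12.16, median 10.73, in knockouts. At E18.5 4 of 5 knockouts were below every wild type, and at P0 all 6 knockouts were above the wild-type mean, with overlap at both ages. Tubb3 read 6.84, 6.04, 5.55 and 5.60 in E18.5 wild type against 6.67, 5.01, 5.24, 4.97 and 4.53 in knockouts. Its P0 wild types read 6.26, 5.43, 4.55, 4.79 and 5.34, and its P0 knockouts 5.22 to 6.75 with a median of 5.83. Tubb3 showed the same crossing as Stmn2, lower in 4 of 5 knockouts before birth and above the wild-type mean in 5 of 6 after it.

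The glial members behaved differently from the neuronal ones. Sox10 was nearly flat, at 5.80, 5.79, 5.67 and 5.99 in E18.5 wild type, 6.48, 5.76, 5.90, 5.85 and 5.88 in E18.5 knockouts, and 5.94, 5.77, 5.71, 6.33 and 5.87 in P0 wild type. In P0 knockouts it ran from 5.65 to 5.93 with a median of 5.74. Its span of 0.84 was wider than that of only 44.7% of tested genes, and all 4 groups overlapped. Fabp7 read 10.44, 10.13, 10.45 and 10.23 in E18.5 wild type and 11.59, 9.21, 9.76, 9.75 and 8.88 in E18.5 knockouts. At P0 it read 8.45, 8.11, 7.21, 9.34 and 8.16 in wild type and 7.75 to 9.30, median 8.45, in knockouts. In wild type the 2 ages did not overlap, and in knockouts 5 of 6 P0 arrays lay below every E18.5 array.

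The genotype comparison at E18.5 asked what loss of inceptor changed before birth, and it called none of the 7 genes. The test was limma's moderated test on all 20 arrays with Benjamini-Hochberg adjustment over 17993 genes and a threshold of 0.05; it called 2 genes, 0.0111% of those tested. By limma 0 members passed, and 0 had an unadjusted p under 0.05. Differences of knockout minus wild type ran from -0.96 ± 0.68 (SE) for Stmn2 to 0.58 ± 1.17 for Npy, with 2 of 7 above 0 and a median of -0.48, where all tested genes had a median of 0.02. The sign of the Npy difference rested on single arrays. Without E18.5 knockout array 1 the value turned to -0.57 ± 0.90 (adjusted p = 0.985 by limma), and without E18.5 wild-type array 4 to -0.14 ± 1.23. In the list of general neuron and axon genes 0 of 19 members were above 0 (median -0.31), and limma called 0, with 2 at an unadjusted p under 0.05. Over all tested genes 56.9% were above 0.

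At P0 none of the members was called either. The share of tested genes called was 0.0111%; among the 7 members limma called 0, and 1 had an unadjusted p under 0.05. That gene was Npy, higher in knockouts by 2.78 ± 1.05 (SE), 6.87-fold, with unadjusted p = 0.0166 and adjusted p = 0.514 by limma; 6 of 6 knockout arrays were above the wild-type mean. Stmn2 differed by 1.12 ± 0.61, Dbh by 1.26 ± 0.78, Th by 0.70 ± 0.60 and Tubb3 by 0.68 ± 0.40, with adjusted p from 0.615 to 0.755. In all, 6 of 7 members were above 0 with a median of 0.70, beside 0.0054 over all tested genes. Of the general neuron and axon genes 18 of 19 were above 0 (median 0.32), with 0 called by limma and 0 at an unadjusted p under 0.05. Over all tested genes 52.11% were above 0. Liver markers had higher means in knockouts at P0, all 11 above 0 at a median of 1.95, although none was called. Their array means overlapped, from 7.61 to 12.59 in wild type and from 10.10 to 14.48 in knockouts. With the means of liver and intestinal markers held level the Npy difference was 3.02 ± 1.20 (adjusted p = 0.617).

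Averaged over both ages, limma called 0 members (0.0167% of all tested genes) and 1 had an unadjusted p under 0.05. This was Npy at 1.68 ± 0.79 (SE, unadjusted p = 0.0464, adjusted p = 0.747). The difference of the genotype effect between the ages was called for 0 members and for 0% of tested genes, with 2 members at an unadjusted p under 0.05. These were Stmn2, at 2.08 ± 0.92 (unadjusted p = 0.0359, adjusted p = 0.699 by limma), and Tubb3, at 1.404 ± 0.60 (unadjusted p = 0.030, adjusted p = 0.687). All 19 general neuron and axon genes had a positive difference (median 0.76), of which limma called 0 and 5 had an unadjusted p under 0.05. Over all tested genes 46.95% were above 0, and 1256 of 17993 had an unadjusted p under 0.05 by limma. The crossing of neuronal genes between E18.5 and P0 was therefore a shared direction and not a call for any single gene. Many of these genes varied together from array to array, so their signs do not count as separate observations. In RNA of a whole organ, the amount of nerve tissue in a sample, from inside or outside the pancreas, and the RNA per nerve cell cannot be told apart.

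**Figure D2:**
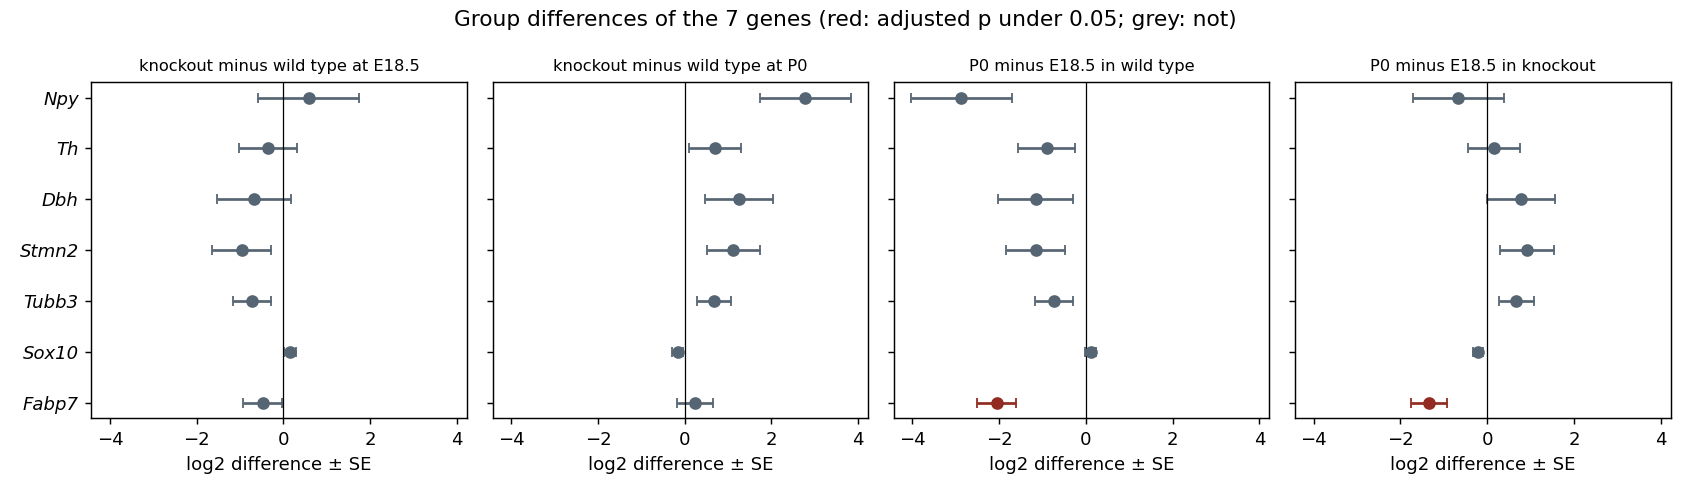
The log2 difference of each of the 7 genes is plotted with its SE for knockout against wild type at each age and for P0 against E18.5 in each genotype. Of the 28 differences shown, those of Fabp7 between the ages are the ones with an adjusted p under 0.05 (-2.06 in wild type and -1.35 in knockouts).

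The comparison of P0 with E18.5 asked what differed between the ages within each genotype. Food was withheld from the mother for 2 h at E18.5 and from the pups for 5 h at P0. Age and fasting therefore cannot be told apart. Fabp7 fell in both genotypes. In wild type it fell by 2.06 ± 0.45 (SE) on the log2 scale, 4.16-fold, with adjusted p = 0.010 by limma and 5 of 5 P0 arrays below every E18.5 array. In knockouts it fell by 1.35 ± 0.41, 2.54-fold, with adjusted p = 0.0242 by limma and 6 of 6 P0 arrays below the E18.5 mean. These were 1 of 7 members in each genotype, where 8.86% of tested genes were called in wild type and 23% in knockouts; called lower were 4.1% and 11.7%, and called higher 4.76% and 11.3%. The call in wild type held in each fit that left out 1 array. The call in knockouts was lost without E18.5 knockout array 1 (-0.91 ± 0.33, adjusted p = 0.0629), without P0 knockout array 3 (-1.198, adjusted p = 0.0554), with the knockout groups fitted alone (adjusted p = 0.054) and with liver and intestinal marker means held level (-1.21 ± 0.58, adjusted p = 0.232). Intestinal epithelium markers were also lower at P0, with array means of 6.46 to 9.17 in E18.5 knockouts and 5.59 to 6.79 in P0 knockouts; 2 of 8 were called lower. The test of the difference between the 2 falls did not pass (0.71 ± 0.61, adjusted p = 0.858), which does not show that they were equal.

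Among 14 tested genes on a list of Schwann cell and glia markers, 1 fell in wild type and 1 rose. In knockouts 1 fell and 5 rose. S100b, a calcium-binding protein of glia, fell in both genotypes, by 1.07 ± 0.22 (SE) in wild type (adjusted p = 0.00728) and by 0.94 ± 0.20 in knockouts (adjusted p = 0.00285). Postn, a matrix protein also made by fibroblasts, rose by 0.61 ± 0.18 (adjusted p = 0.0401) and by 1.10 ± 0.16 (adjusted p = 0.000171). In knockouts Erbb3, the receptor through which neuregulin maintains Schwann cells, rose by 1.09 ± 0.27 (adjusted p = 0.00806), and Cdh19, a cadherin of Schwann cell precursors, by 0.61 ± 0.18 (adjusted p = 0.0222). In all, 10 of 14 were above 0 in each genotype (medians 0.026 and 0.14), and the shares of all tested genes called were 8.86% and 23%. Sox10 itself was not called (0.11 ± 0.13 in wild type and -0.21 ± 0.12 in knockouts).

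The neuronal members were not called between the ages. In wild type Npy differed by -2.87 ± 1.17 (SE, adjusted p = 0.134), with 5 of 5 P0 arrays below the E18.5 mean, and Th, Dbh, Stmn2 and Tubb3 by -0.91, -1.16, -1.16 and -0.73 (adjusted p from 0.313 to 0.445). The same Npy difference had an adjusted p of 0.0449 without E18.5 knockout array 1, which enters this comparison only through the shared estimate of the spread. In knockouts Npy differed by -0.67 ± 1.05 (adjusted p = 0.704), and by 0.49 (adjusted p = 0.741) without that array. Stmn2 differed by 0.92 ± 0.61 in knockouts (adjusted p = 0.313) and passed without that array, at 1.62 (adjusted p = 0.022). Of the general neuron and axon genes 19 of 19 were below 0 in wild type (median -0.39), 1 of them called, the microtubule protein Mapt (-0.39 ± 0.10, adjusted p = 0.0264). In knockouts 14 of 19 were above 0 (median 0.16), limma called 0, and 2 had an unadjusted p under 0.05. Over all tested genes 51.2% were above 0 in wild type and 49.29% in knockouts. On the sympathetic list 0 of 7 were called in wild type, with 1 at an unadjusted p under 0.05; in knockouts 1 was, Maob, which breaks down monoamines (-0.96 ± 0.20, adjusted p = 0.00199). On the parasympathetic and enteric list 6 of 12 genes were tested. The cholinergic genes Chat, Slc18a3 and Slc5a7 had too low a signal to be among them. Of the 6 tested, 2 fell in knockouts, where 11.7% of all tested genes were called lower. By limma these were the neuropeptide Gal, by 2.54 ± 0.50 (adjusted p = 0.0015), and the neurturin receptor Gfra2, by 0.57 ± 0.19 (adjusted p = 0.0391). Whether these falls came from nerve was not tested. In wild type 0 of these 6 were called by limma, with 1 at an unadjusted p under 0.05; Gal was at -1.13 ± 0.55 and Gfra2 at -0.58 ± 0.21 (adjusted p = 0.216 and 0.0961).

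Whether Npy followed the noradrenaline enzymes or the islet was read from deviations of each array from its group mean, which leave out differences between the groups. Over 17 relations and 20 arrays, each tested with 100000 permutations within groups, 6 passed after Benjamini-Hochberg adjustment: those of Npy with Dbh, Th, Stmn2, Tubb3 and Isl1, and that of Th with Dbh. Npy correlated with Dbh at r = 0.92 (Spearman rho 0.87, permutation p = 2e-05, adjusted 0.00017) and with Th at r = 0.91 (rho 0.83, permutation p = 0.0002, adjusted 0.00085). Th and Dbh themselves correlated at r = 0.97 (rho 0.95, permutation p = 3e-05, adjusted 0.00017). Within a group, an array above its group mean for 1 of these 3 RNAs thus tended to be above it for the others.

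The neuronal members followed Npy too, at r = 0.83 for Stmn2 (rho 0.69, permutation p = 0.00046, adjusted 0.00156) and r = 0.83 for Tubb3 (rho 0.77, permutation p = 2e-05, adjusted 0.00017). The glial members did not pass: Fabp7 had r = 0.52 (rho 0.33, permutation p = 0.0872, adjusted 0.165) and Sox10 r = 0.36 (rho 0.22, permutation p = 0.204, adjusted 0.289). Both of these rested on E18.5 knockout array 1, without which r was 0.06 and -0.24. Without that array Npy still correlated with Dbh at 0.83, with Th at 0.83, with Tubb3 at 0.75 and with Stmn2 at 0.65. Without the 2 arrays farthest from the median of Npy (E18.5 knockout 1 and P0 wild type 5) r was 0.84 with Dbh and 0.83 with Th (permutation p = 0.00053 and 0.00156, adjusted 0.003 and 0.00663, n = 18).

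Within each age r with Dbh and Th passed, while the rank test passed in 1 of 4 cases. On the 9 E18.5 arrays r was 0.98 with Dbh (exact permutation p = 0.00417, adjusted 0.0334; rho 0.88, adjusted 0.11) and 0.97 with Th (exact permutation p = 0.0142, adjusted 0.0403; rho 0.60, adjusted 0.237). Without knockout array 1 the 8 remaining E18.5 arrays gave 0.94 and 0.93, which did not pass (exact permutation p = 0.104 and 0.144, adjusted 0.35 for each). On the 11 P0 arrays it was 0.76 with Dbh (exact permutation p = 0.00104, adjusted 0.00885; rho 0.70, adjusted 0.0443) and 0.76 with Th (exact permutation p = 0.00503, adjusted 0.0271; rho 0.68, adjusted 0.0662). Stmn2 did not pass at P0 alone (r = 0.61, exact permutation p = 0.0471, adjusted 0.133).

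The labels also carry a running sample number, and Npy was not spread evenly along it. At E18.5 the samples numbered 13 to 15, of both genotypes, read 12.62, 12.22 and 16.02, and those numbered 17 to 22 read 8.67 to 10.65. At P0 the samples numbered 1 to 6, of both genotypes, read 9.33 to 11.24. Those numbered 7, 8 and 10, all wild type, read 6.62 to 7.15. The knockouts numbered 11 and 12 read 8.67 and 11.73. All P0 samples are numbered below all E18.5 samples, so age and number cannot be told apart. What the number stands for is not stated, and permutations within groups do not keep this order. A linear trend along it, used below, does not take out a step that turns back at number 12. With a linear trend along the number taken out at each age, Npy had r = 0.90 with Dbh and 0.88 with Th over 20 arrays (permutation of the residuals, adjusted p = 0.00051 for both), while Isl1 no longer passed (0.39, adjusted p = 0.184). With the number as a covariate the Npy difference between genotypes was 0.95 ± 0.95 (SE) at E18.5 and 2.71 ± 0.85 at P0 (adjusted p = 0.987 and 0.437 by limma).

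Over the 20 arrays the islet genes gave no such relation, apart from Isl1. The hormones glucagon (Gcg, r = 0.38, permutation p = 0.160), somatostatin (Sst, -0.19, p = 0.436), pancreatic polypeptide (Ppy, 0.27, p = 0.309), peptide YY (Pyy, -0.22, p = 0.347), ghrelin (Ghrl, 0.06, p = 0.818) and amylin (Iapp, -0.33, p = 0.0972) did not pass by permutation, with adjusted p from 0.165 to 0.869. Neither did the granule protein Chga (-0.50, permutation p = 0.036), the zinc transporter Slc30a8 (-0.44, permutation p = 0.0355), both at adjusted p = 0.0765, or the beta cell factor Nkx6-1 (0.00, adjusted p = 0.987). Chga passed without E18.5 knockout array 4 (-0.62, adjusted p = 0.0335 by permutation), E18.5 wild-type array 2 (-0.55, 0.0457) or P0 wild-type array 2 (-0.56, 0.0455), and Slc30a8 without E18.5 knockout array 4 (-0.52, 0.0305) or P0 knockout array 5 (-0.46, 0.0326). Ghrl turned from 0.84 on the E18.5 arrays (exact permutation p = 0.0278, adjusted 0.0675) to -0.79 on the P0 arrays (exact permutation p = 0.0103, adjusted 0.0352). Isl1, a transcription factor of islet cells that sympathetic neurons also need, passed at r = 0.62 (rho 0.64, permutation p = 0.0107, adjusted 0.0304). It did not pass without E18.5 knockout array 1 (0.53, adjusted p = 0.198), without P0 wild-type array 1 (0.58, adjusted p = 0.0516) or array 5 (0.60, adjusted p = 0.0561), without E18.5 wild-type array 4 (0.56, adjusted p = 0.0739), or at P0 alone (0.36, exact permutation, adjusted p = 0.555).

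**Figure D3:**
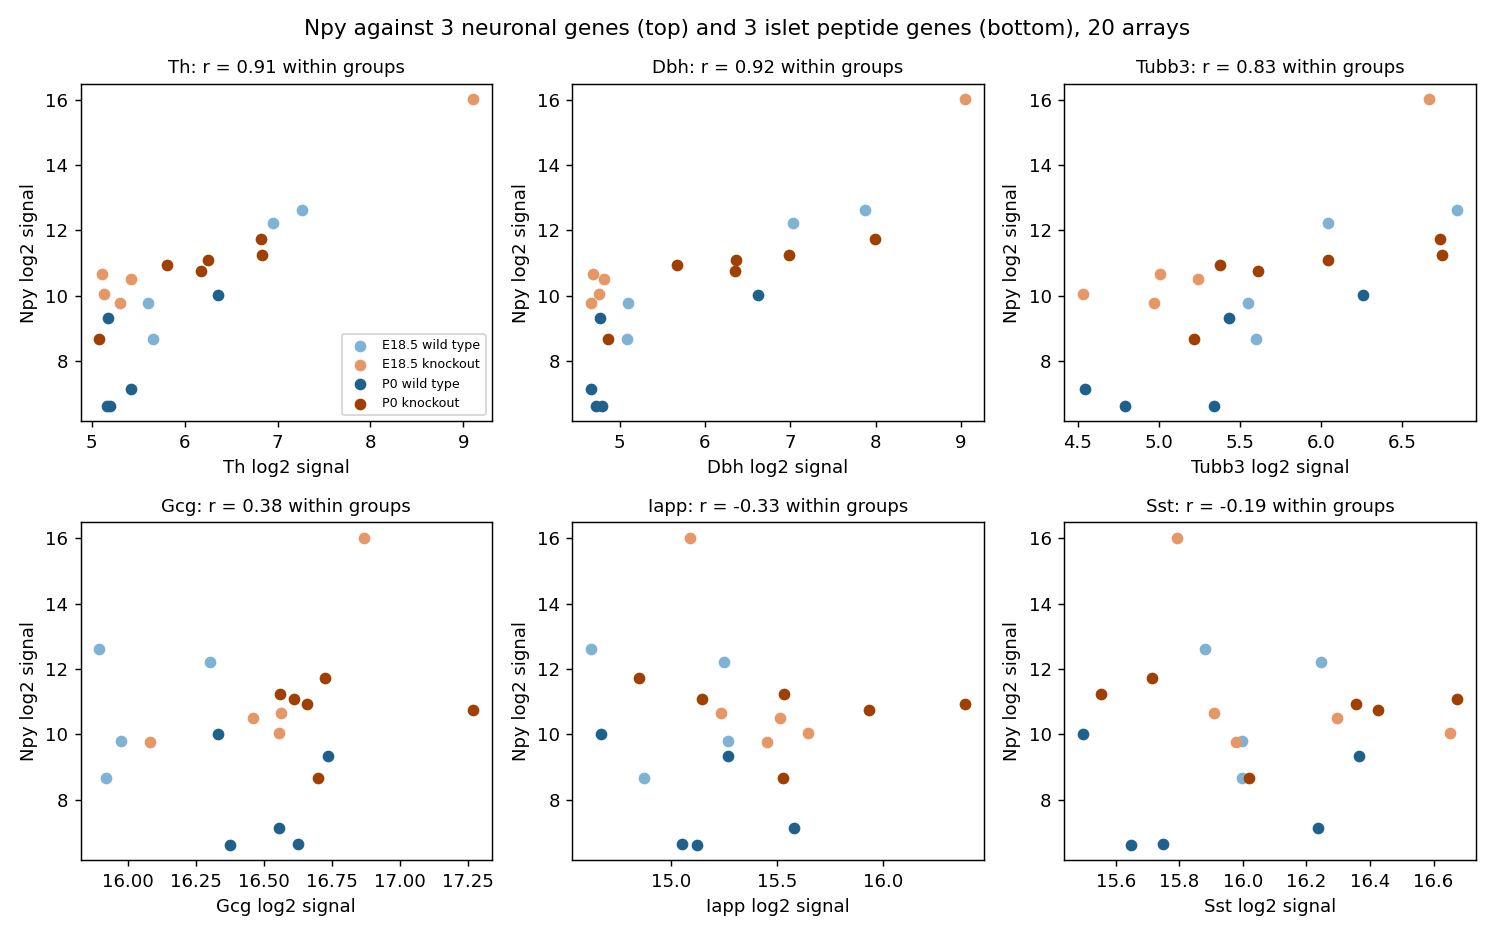
Npy log2 signal is plotted against that of Th, Dbh and Tubb3 (top) and of Gcg, Iapp and Sst (bottom), with 1 point per array coloured by group and the correlation of deviations from group means in each title. Npy climbs with Dbh (r = 0.92) and Th (r = 0.91), while the islet peptide panels show no slope of that kind (0.38, -0.33 and -0.19).

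Ranked by r with Npy among 17894 tested genes with values that vary, Dbh was 3rd and Th 5th, Tubb3 18th and Stmn2 20th, against 1315th for Gcg and 2348th for Ppy; of the endocrine list Ptprn was 173rd, Isl1 200th and Pdx1 398th. Without E18.5 knockout array 1 Dbh was 5th, Th 7th, Tubb3 46th and Stmn2 152nd, Pdx1 324th, Isl1 573rd, Ptprn 4012th and Gcg 5798th. The 10 genes most like Npy (r from 0.89 to 0.92 over 20 arrays) were the neurofilament Nefm, the GTPase Rit2, Dbh, Cacng5, Th, Vat1l, the vesicular monoamine transporter Slc18a2, the artemin receptor Gfra3, Eya1 and Spock1. For Th the 10 (r from 0.92 to 0.97) were Dbh, the neurofilament protein Ina, Nefm, Eya1, the transcription factor Tfap2b, Cacng5, the axonal motor Kif5a, Cnksr2, Stmn2 and the growth cone protein Gap43. Both sets shared 4 genes. These ranks describe the arrays, which share their tissue source, and carry no test.

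Over lists, 17 of 19 general neuron and axon genes had r above 0.5 with Npy (median 0.73). Over all tested genes with values that vary, 530 of 17894 were above 0.5, and the median was -0.05. Without E18.5 knockout array 1 the list had 9 of 19 above 0.5 with a median of 0.49, beside 682 of 17894 with a median of -0.02. On the sympathetic list 3 of 7 were above 0.5 (median 0.43), namely Slc18a2 (0.91), the intermediate filament Prph (0.68) and dopa decarboxylase Ddc (0.58), and without that array 1 of 7 was (median 0.12). The noradrenaline transporter Slc6a2 lay at 4.20 to 5.25 and the transcription factor Phox2a at 3.37 to 4.36, and neither passed the signal filter. Slc6a2 was above the array median only on P0 knockout 4 (5.25), E18.5 knockout 1 (5.23) and P0 knockout 6 (5.095). Phox2a was above it on no array, and its highest value was on E18.5 knockout 1. Ins2 read the same 18.584 on 19 of 20 arrays and 18.504 on the other, so it could hardly vary with any gene and is left out here. Of the other 6 islet hormone and peptide genes 0 were above 0.5 (median -0.066), and of beta cell and endocrine genes 3 of 20 (median -0.02), which were Isl1, Pdx1 (0.54) and Ptprn (0.64), a vesicle protein of endocrine cells and neurons. Without E18.5 knockout array 1 these were 0 of 6 (median -0.096) and 3 of 20 (median 0.055). The 3 were then Pdx1 (0.59), Ptprn2 (0.53) and Isl1 (0.53). Of the 6 tested parasympathetic and enteric genes 0 were above 0.5 (median -0.12), and of the 14 tested Schwann cell and glia genes 2 were, Gfra3 (0.90) and the axonal adhesion molecule L1cam (0.78), with a list median of -0.08. Skeletal muscle markers had a median of 0.45 with all arrays and 0.05 without E18.5 knockout array 1.

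Adrenal tissue would bring Th, Dbh and Npy as well, and its own markers were read for that reason. Pnmt, which turns noradrenaline into adrenaline and marks chromaffin cells, lay between 4.02 and 4.63 over the 20 arrays and was above the array median on none. Of 11 named adrenal cortex genes 6 were never above the array median, among them the steroidogenic genes Star (3.82 to 4.45), Cyp11b1 (3.83 to 4.19) and Nr5a1 (3.74 to 4.27). The mean of all 11 cortex genes, of which 4 passed the signal filter, ran from 4.74 to 4.99. It was highest on E18.5 knockout array 1, at 4.99 against 4.97 on the next. For the 4 tested cortex genes r with Npy was 0.08 to 0.30 over 20 arrays and -0.12 to 0.13 without that array. Of 8 tested chromaffin genes 2 had r above 0.5, Cyb561 (0.73), which keeps vesicular ascorbate reduced for Dbh, and the monoamine transporter Slc18a1 (0.64). The 8 had a median of 0.24 and ran from -0.50 for Chga to 0.73 for Cyb561. Without E18.5 knockout array 1 the median was -0.05, and 1 of the 8 was above 0.5. Slc18a1 read 5.95 on that array. The part of adrenal tissue in the values of Npy was not tested.

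**Figure D4:**
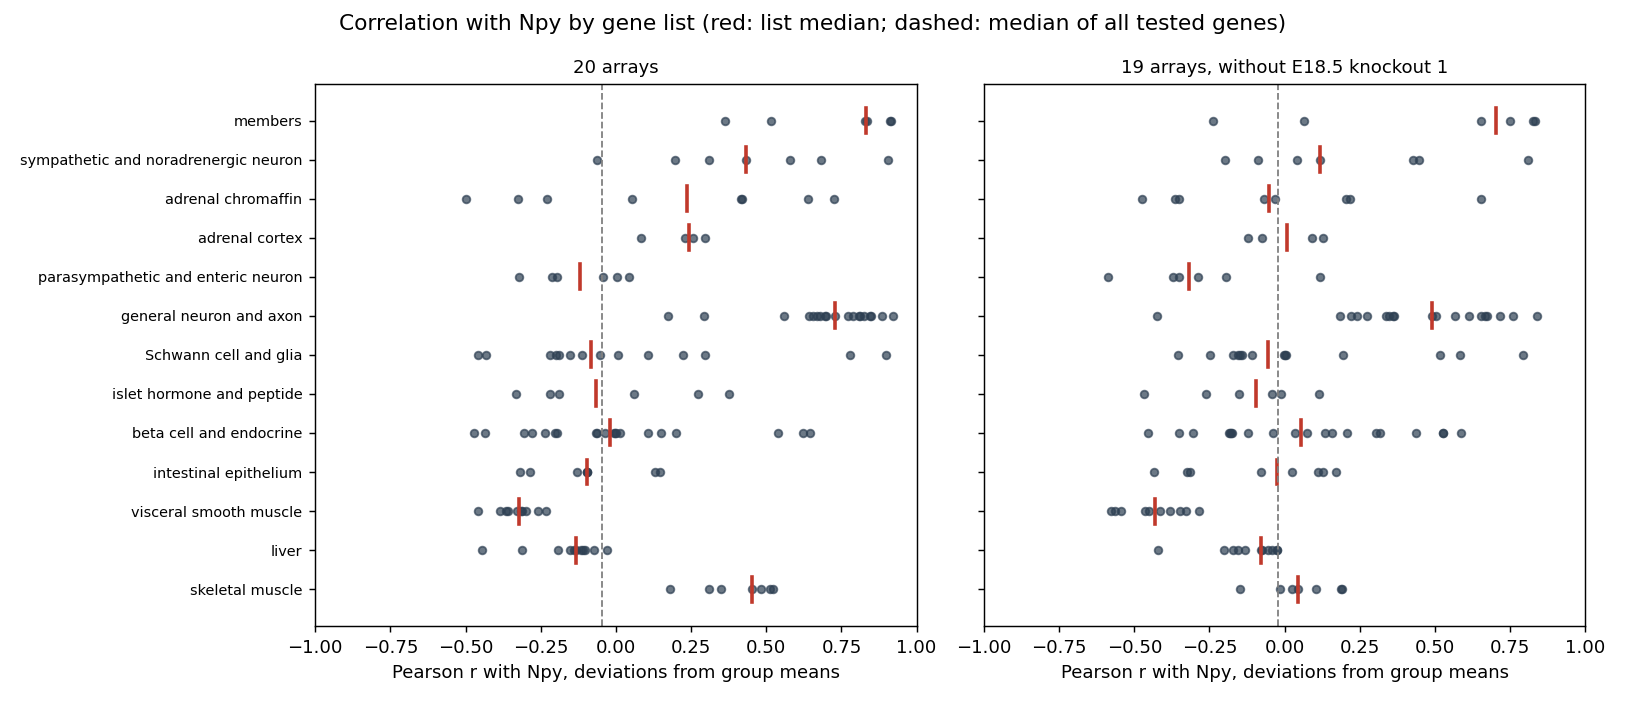
Points show r of single genes with Npy by list, over 20 arrays (left) and over 19 without E18.5 knockout array 1 (right); red marks are list medians and the dashed line is the median of all tested genes. The general neuron and axon list has a median of 0.73 on the left and 0.49 on the right, while the 6 islet hormone and peptide genes (Ins2, level on 19 of 20 arrays, is not plotted) have medians of -0.066 and -0.096.

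The difference of Npy between genotypes was also fitted with the mean of Th and Dbh as a covariate, although Dbh was not above the array median on 9 of 20 arrays, so the covariate cannot hold Dbh level there. It was 1.31 ± 0.47 (SE) at E18.5 (adjusted p = 0.794) and 1.395 ± 0.45 at P0 (adjusted p = 0.553), which made 1.35 ± 0.32 on average (unadjusted p = 0.000532, adjusted p = 0.525 by limma). The difference between the ages was then 0.08 ± 0.67. Without E18.5 knockout array 1 these were 1.33 ± 0.60 at E18.5, 1.38 ± 0.49 at P0 and 0.05 ± 0.86 for their difference (adjusted p = 0.987, 0.716 and 1). Without the covariate these values were 0.58, 2.78, 1.68 and 2.20. With the mean of the general neuron and axon genes as the covariate they were 1.85 ± 0.74 at E18.5 and 1.47 ± 0.68 at P0. In knockouts Npy then fell between the ages by 1.32 ± 0.43 with Th and Dbh as the covariate (adjusted p = 0.0341 by limma), which did not pass without E18.5 knockout array 1 (-1.34 ± 0.55, adjusted p = 0.129). Both forms of the Th and Dbh covariate were chosen after the data were seen, and no genotype difference of Npy passed in any of these fits.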

How the data were processed

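The authors deposited log2 signals of whole pancreas RNA, computed with Affymetrix Expression Console 1.4.1.46 (RMA), per the submitters' processing notes; RMA corrects background, equalises the arrays and summarises probes. Per the labels' protocols, extraction used the RNeasy Lipid Tissue Kit and amplification NuGEN Ovation PicoSL WTA V2. Of 65956 probe sets, 30604 had a single symbol, 2146 several and 33206 none; the array's genome build is not given in the sources used here. Symbols were updated through RefSeq's GRCm38.p6 table. A gene took its probe set with the highest mean, and 17993 of 30063 genes, those exceeding the median of 4 or more arrays, were tested.

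All 20 arrays were fitted as 4 group means with limma 3.58.1 in R 4.3.3, two-sided, with Benjamini-Hochberg adjustment per contrast; fold values come from these log2 differences. The labels do not say that each array is a separate animal, so p-values reflect only how much these samples vary, which may be technical. Correlations used deviations from group means and two-sided permutations within groups, 100000 over both ages and exact within an age. The tests were checked on simulated data. The 7 genes, the 13 gene lists and the tests were chosen with earlier results of these data known. Named by rule were the 7 genes, the correlated islet genes, the 10 genes most like Npy and Th, and from each list up to 4 called genes or, if none, up to 2 with the smallest p; genes named for their correlation within a list, and marker genes named for a low signal, were chosen after their values were seen. Alternatives were other normalisations, filters, eBayes settings, array weights, covariates, a replicate block and leaving out each array. Figures used matplotlib 3.10.9.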

Additional observations from a re-analysis of the deposited data

Results flagged for a closer look

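In groups of 4 to 10 arrays the highest or lowest value was compared with the gap to its nearest neighbour (Dixon's test). Of 28 combinations of the 7 genes and 4 groups, 7 stood apart, where chance gives about 1 in 20 for a single combination. The combinations are not independent, because Npy, Th and Dbh moved together and several of the 7 fell on the same array. E18.5 knockout array 1 was the highest of its group for Npy at 16.019 (the others 9.78 to 10.65), for Th at 9.107 (others 5.11 to 5.42), for Dbh at 9.047 (others 4.67 to 4.81) and for Sox10 at 6.482 (others 5.76 to 5.90). P0 wild-type array 1 was the highest of its group for Th at 6.363 (others 5.16 to 5.42) and for Dbh at 6.625 (others 4.67 to 4.80). P0 knockout array 5 was the lowest of its group for Npy at 8.667 (others 10.76 to 11.73). E18.5 knockout array 1 also had the highest mean of the general neuron and axon genes, 7.05, and a high mean of the skeletal muscle markers, 7.65; the part of either in these values was not tested.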

How the results depend on the processing

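Direction and side of the threshold were kept by 1260 of 1294 single-gene values of the 7 genes; the cause of the others was not tested beyond the arrays and covariates named. The counts of called genes among the 7 at E18.5, at P0, averaged and for the difference stayed at 0 in every alternative run. Between the ages in wild type the count was 1, and 1 to 2 over fits that left out 1 array. In knockouts it was 1, became 0 with the groups fitted alone, with liver and intestinal covariates or with Th and Dbh as a covariate and E18.5 knockout 1 left out, 2 with Th and Dbh as a covariate (Fabp7 and Npy, with Th and Dbh out of the count) or without both arrays rich in muscle markers (Fabp7 and Stmn2), and ran from 0 to 1 leaving out 1 array. The Th and Dbh covariate, the muscle-rich arrays, the running number in correlations and the E18.5 arrays without knockout 1 were chosen after the data were seen.

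With the neuron and axon mean as a covariate, signs turned for knockout minus wild type at E18.5 in Dbh (0.37) and Th (0.47), at P0 in Fabp7 (-0.25) and Th (-0.15), and for the difference between ages in Dbh (-0.20), Fabp7 (-0.25), Npy (-0.37) and Th (-0.62). For age they turned in wild type in Dbh (0.27), Stmn2 (0.047), Th (0.22) and Tubb3 (0.0054), and in knockouts in Th (-0.41). Th also turned there with liver and intestinal covariates (-0.10), and Fabp7 at P0 with Th and Dbh as a covariate (-0.14). Without both muscle-rich arrays Npy was -0.57 for genotype at E18.5 and 0.38 for age in knockouts. Leaving out 1 array gave -0.57 to 1.18 for Npy at E18.5, -0.025 to 0.51 for Fabp7 at P0, and for age in knockouts -1.07 to 0.49 for Npy and -0.079 to 0.92 for Th.

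The correlations of Npy with Th (0.76 to 0.97) and with Dbh (0.76 to 0.98) passed in 30 of 31 alternatives run, and 5 to 8 of 17 relations passed in these. The exception was the 8 E18.5 arrays without knockout 1, where 0 of 17 passed, with r at 0.93 for Th and 0.94 for Dbh, and turned r for Sox10 (-0.37), Fabp7 (-0.014), Sst (0.030), Pyy (0.38), Chga (0.045) and Nkx6-1 (0.59). With the running number taken out r for Ghrl was -0.061. For Nkx6-1 r was 0.082 after a further quantile normalisation, 0.069 after cyclic loess, 0.21 on deviations from age means and 0.10 at E18.5 alone. At P0 alone r was -0.20 for Sox10, -0.049 for Gcg, -0.13 for Ppy and -0.79 for Ghrl. Without the 2 arrays farthest in Npy it was -0.28 for Sox10, -0.11 for Ppy, -0.41 for Ghrl and 0.20 for Nkx6-1, and without both muscle-rich arrays -0.24 for Sox10, 0.038 for Sst, -0.47 for Ghrl and 0.24 for Nkx6-1. Leaving out 1 array gave -0.24 to 0.58 for Sox10, -0.041 to 0.35 for Ppy, -0.47 to 0.25 for Ghrl and -0.086 to 0.16 for Nkx6-1.

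The labels do not say whether replicate numbers pair the arrays, and they were not treated as pairs. Between genotypes at E18.5 same-numbered arrays correlated at 0.09 to 0.229. There knockouts 1, 2 and 4, but not 3, correlated best with the wild type of their own number. At P0 the range was -0.031 to 0.245, and only knockout 4 did so. Between the ages it was -0.305 to 0.184. The replicate block left all counts of called genes among the 7 as they were, with Npy at 2.58 at P0, and called 1126 genes in place of 1594 between the ages in wild type and 1 in place of 2 for genotype at P0. No cut-off for signal over background was available beyond the array median.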
